A study of Rattus norvegicus with 12 samples.

Results

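NFkB is a family of dimeric transcription factors that is held inactive in the cytoplasm and acts in inflammation and immunity. Its subunits, its inhibitors, a feedback enzyme and an activating kinase were followed here in the colon of rats after neonatal maternal separation (NMS) with or without the probiotic mixture VSL#3. Members were all noncontrol probes whose gene name in the array files equals Nfkb1, Nfkb2, Rel, Rela, Relb, Nfkbia, Nfkbib, Nfkbie, Tnfaip3 or Ikbkb. The rule found 8 of 30367 probes, which measure 7 of the 10 genes, out of 26514 gene names on the array. No probe carries the name Rel, Relb or Tnfaip3. A probe named LOC683206, the gene identifier that RefSeq now gives to Tnfaip3, lies outside the rule and is given only beside the members.

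All 12 animals were male Wistar rats with no stated genetic change that underwent colorectal distension (CRD), and the colon was taken at postnatal day 60. The 4 rats of Group C (C1 to C4) were handled normally and received placebo (saline) by daily gavage from day 3 to day 60. The 4 rats of Group M (M5 to M8) were separated from the dam for 180 min a day from day 2 to day 14 and received the same placebo. The 4 rats of Group D (D9 to D12) were separated in the same way and were gavaged with VSL#3 over the same days. The RNA came from tissue of the same colon segment in each rat, which began about 2 cm from the anus. A higher number of cells of one type and a higher level per cell therefore cannot be told apart.

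Each rat had 1 array of 1 colour (Cy3). Values are log2 levels, the log2 signal of a probe less that of the 75th percentile of its array, so that 0 is the level of that percentile. The 75th percentile ranged from 1434 to 1953 across the 12 arrays, 75.5% to 77.5% of spots were well above background, and 0 spots were saturated. D12 is not among the arrays of the study's analysis, which gives no reason. The other 11 arrays enter the comparisons, and values with D12 are given beside them. Groups C and M shared 1 slide and scan, each on its own array row, and Group D was on another slide and scan, so that slide and group cannot be told apart in comparisons with Group D, nor row and group between M and C. The tissue label held for its markers, since all 13 of 13 colonic epithelium markers were well above background on all 12 arrays. C2, M6 and D12 stood apart from the other rats of their groups in immune cell markers. The summed level of 7 B cell markers (linear scale, 75th percentile = 1) was 6.21 in C2 against 0.452 to 0.644 in C1, C3 and C4, 0.564 in M6 against 5.26 to 9.45 in M5, M7 and M8, and 15.1 in D12 against 0.396 to 0.944 in D9 to D11. Results for the members that rest on these rats are therefore given with and without them.

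In resting cells NFkB dimers are bound by inhibitors of the IkB class. The IkB kinase marks these inhibitors for degradation, the dimers enter the nucleus, and among the genes they switch on are those of their own inhibitors and precursors, which makes the pathway a feedback loop. In the gut the pathway works in epithelial cells as well as in the immune cells of the mucosa.

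The array read these genes through 60-base probes. The 4 shown are those of the subunits and of the principal inhibitor, with their positions in the rn4 build that the files give (strand in brackets). Their exon or intron annotation in that build was not used here. The Nfkb2 probe covers a stretch of the genome longer than itself.
Nfkb1, chr2:233091704-233091763 (-): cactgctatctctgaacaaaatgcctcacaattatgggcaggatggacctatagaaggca
Nfkb2, chr1:251526647-251526839 (+): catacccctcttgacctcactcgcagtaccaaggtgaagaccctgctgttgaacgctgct
Rela, chr1:208272360-208272419 (+): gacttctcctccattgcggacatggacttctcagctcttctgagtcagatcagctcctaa
Nfkbia, chr6:75730438-75730497 (-): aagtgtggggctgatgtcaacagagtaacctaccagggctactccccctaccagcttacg

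The sequence that NFkB dimers bind, the kB consensus motif of 10 bases, was searched on both strands of RefSeq promoters (GRCr8, 250 bases before to 50 after the start of each gene). Of the 10 listed genes 8 had a promoter in this table, and 6 of the 8 held at least 1 match, against 2515 of 33469 promoters (7.51%) overall. The median GC content was 66.8% for the 8 promoters and 51.7% for all. The windows below are those of the measured members that held a match, shown with 10 bases on each side, and capitals mark the match. Matches also lay in the promoters of Rel and Tnfaip3, which no probe named so measured, and the promoters of Rela and Nfkbib held none in this window. A match is a description of letters and not a measured binding site.
Nfkb1, chr2:226805440-226805469 (-): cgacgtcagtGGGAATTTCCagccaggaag
Nfkb2, chr1:255108344-255108373 (+): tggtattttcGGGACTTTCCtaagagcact
Nfkbia, chr6:78597084-78597113 (-): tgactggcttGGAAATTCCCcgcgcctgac
Nfkbie, chr9:22948017-22948046 (-): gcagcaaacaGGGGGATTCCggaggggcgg
The match began at base 4 after the start in Nfkb1, and 20, 31 and 164 bases before it in Nfkb2, Nfkbia and Nfkbie.

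NMS was first compared with normal handling. By limma with adjustment over all probes, 0 of 7 members differed between these groups, M and C, at an adjusted p of at most 0.05, where 0.204% of all probes did. At an unadjusted p under 0.05 limma counted 1 member, Nfkb1, higher in Group M and 0 lower, against 10% and 12.6% of all probes. By the criterion of the study's methods, which asks for a p of at most 0.05 without adjustment in a Tukey test and in an analysis of variance and for means at least 2-fold apart, 0 members passed, against 2.31% of probes. The means of 6 members lay higher in Group M, with a median difference of 0.13 log2 over the 7, where all probes had a median of -0.01.

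Nfkb1, which encodes the precursor of a DNA-binding subunit of the classical dimer, had the largest difference among the 7 members. Its log2 level was -0.85, -0.43, -0.62 and -0.77 in C1 to C4, 0.15, -0.37, 0.61 and 0.31 in M5 to M8, -0.65, -0.72 and -0.70 in D9 to D11, and 0.87 in D12. Every rat of Group M lay above every rat of Group C, and D9 to D11 lay among the rats of Group C, while D12 was the highest of all. Group C had a mean of -0.67 ± 0.18 (SD, n = 4). Group M had 0.18 ± 0.41 (SD, n = 4), which was higher by 0.84 log2 (SE 0.19, 95% interval 0.43 to 1.26), or 1.79-fold. Its adjusted p by limma was 0.0907, above the threshold of 0.05. Groups that do not overlap were found at 4.18% of all probes with Group M higher and at 5.04% with Group M lower, and Nfkb1 was the only one of the 7 members among them. The lowest rat of Group M was M6. Without M6 the difference was 1.02 (SE 0.14, adjusted p by limma 0.00797), and without C2 the adjusted p by limma was 0.0734.

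**Figure D1:**
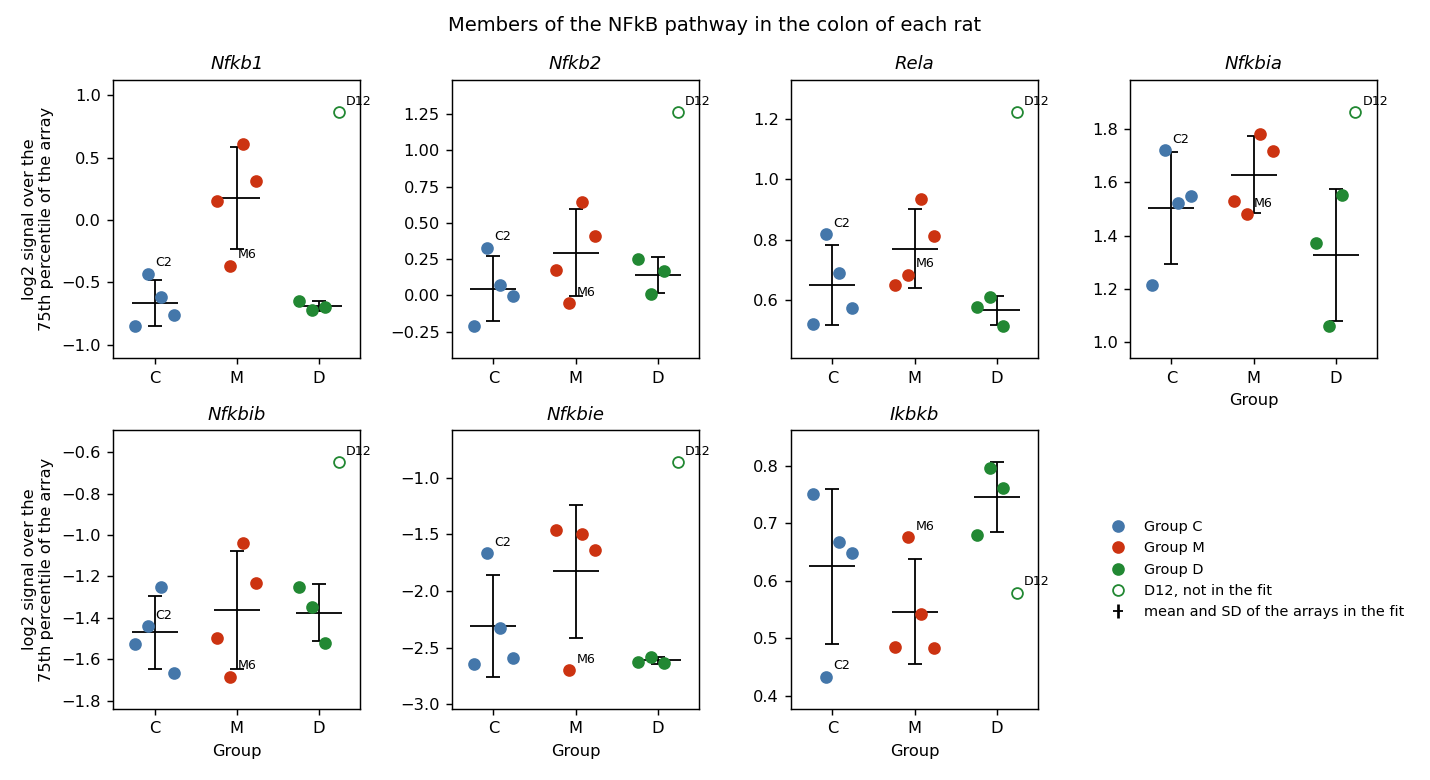
Log2 level (signal over the 75th percentile of the array) of the 7 members with a probe in each rat, with the lead probe for Rela, 1 point a rat, bars at the mean and SD of the 11 arrays in the fit, and D12 as an open circle. In Nfkb1 all 4 rats of Group M lie above Group C, and D12 is the highest rat in 6 of the 7 panels.

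Nfkb2 encodes the precursor of a DNA-binding subunit of the noncanonical arm. Its log2 level was -0.21, 0.33, 0.07 and -0.0043 in Group C, 0.18, -0.052, 0.64 and 0.41 in Group M, 0.25, 0.0097 and 0.17 in D9 to D11, and 1.26 in D12. The 3 groups overlapped, with M7 the highest of the 11 rats and C1 the lowest. Group M differed from Group C by 0.25 (SE 0.16, 95% interval -0.11 to 0.61, adjusted p by limma 0.398).

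Rela encodes the subunit that carries the transactivating part of the classical dimer and was measured by 2 probes. The log2 level of the brighter probe was 0.52, 0.82, 0.69 and 0.57 in Group C, 0.65, 0.69, 0.94 and 0.81 in Group M, 0.58, 0.61 and 0.51 in D9 to D11, and 1.22 in D12. Groups C and M overlapped, and their difference was 0.12 (SE 0.10, 95% interval -0.10 to 0.34, adjusted p by limma 0.512). The other probe, at chr1:208263526-208263582, gave 0.36 (SE 0.32, adjusted p by limma 0.545), and its rat farthest from the others was M7, at a log2 level of -2.44 against -4.10 to -3.63 in the rest of Group M. The probes differed in the size of the difference and not in its direction.

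Among the inhibitors, Nfkbia, whose product IkB alpha is the fast, NFkB-induced brake of the pathway, had log2 levels of 1.22, 1.72, 1.52 and 1.55 in Group C, 1.53, 1.48, 1.78 and 1.72 in Group M, 1.37, 1.06 and 1.55 in D9 to D11, and 1.87 in D12. The groups overlapped throughout. Its difference between Group M and Group C was 0.13 (SE 0.14, 95% interval -0.19 to 0.44, adjusted p by limma 0.645).

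Nfkbib, the gene of the related inhibitor IkB beta (probe at chr1:83866200-83866259), had log2 levels of -1.53, -1.44, -1.25 and -1.67 in Group C, -1.50, -1.68, -1.04 and -1.23 in Group M, -1.25, -1.35 and -1.52 in D9 to D11, and -0.65 in D12. Both M6 at the low end and M7 at the high end of the 11 rats belonged to Group M. The difference between Group M and Group C was 0.11 (SE 0.15, 95% interval -0.23 to 0.45, adjusted p by limma 0.724), and it was -2e-04 without M7.

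Nfkbie, the gene of the inhibitor IkB epsilon (probe at chr9:11044255-11044314), was the member most divided within its groups. Its log2 level was -2.64, -1.67, -2.33 and -2.60 in C1 to C4, -1.46, -2.70, -1.50 and -1.64 in M5 to M8, -2.63, -2.58 and -2.63 in D9 to D11, and -0.86 in D12. M5, M7 and M8 lay above every other rat but D12, C2 came next, and M6 was the lowest of all. Group M differed from Group C by 0.48 (SE 0.29, 95% interval -0.17 to 1.14, adjusted p by limma 0.358). Without M6 the difference was 0.78 (SE 0.21, adjusted p by limma 0.0387), and without C2 its adjusted p was 0.153.

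Ikbkb, the catalytic kinase that marks the inhibitors for degradation (probe at chr16:73858022-73858081), had log2 levels of 0.75, 0.43, 0.67 and 0.65 in Group C, 0.48, 0.68, 0.54 and 0.48 in Group M, 0.68, 0.80 and 0.76 in D9 to D11, and 0.58 in D12. It was the 1 member of the 7 with a lower mean in Group M than in Group C, by -0.08 (SE 0.09, 95% interval -0.29 to 0.13, adjusted p by limma 0.667). Its SE was the smallest of the 7, and the interval leaves out a 2-fold difference either way. For the probe LOC683206, log2 levels were -5.21, -4.27, -5.18 and -5.30 in Group C and -4.64, -5.22, -4.03 and -4.24 in Group M, a difference of 0.46 (SE 0.29, adjusted p by limma 0.384) between overlapping groups. C2 was again the highest rat of Group C and M6 the lowest of Group M.

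Without M6, limma called 2 of 7 members higher in Group M than in Group C, Nfkb1 and Nfkbie, where it called 16.2% of all probes. The next in order was Nfkb2 with a difference of 0.36 (SE 0.15, adjusted p 0.14). With D12 in the fit, which changes only the shared spread in this comparison, 0 members were called, and the adjusted p of Nfkb1 was 0.236.

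The next comparison asked how separated rats that received VSL#3 differed from separated rats on placebo. Groups D and C are each set against the same Group M rats here and above, so the 2 sets of differences are not independent of each other. By limma 0 of 7 members differed between Group D and Group M, against 0.171% of all probes. At an unadjusted p under 0.05 limma counted 2 members lower in Group D, Nfkb1 and Nfkbie, and 0 higher, against 10.3% and 11.3% of all probes. By the methods' criterion 0 members passed, against 2.66% of probes. The means of 6 members lay lower in Group D, with a median difference of -0.20 log2, where all probes had a median of 0.01.

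Nfkb1 had a mean log2 level of -0.69 ± 0.04 (SD, n = 3) in Group D, and its difference from Group M was -0.87 (SE 0.20, 95% interval -1.31 to -0.42, adjusted p by limma 0.0847), or 1.82-fold lower. Nfkbie had a mean of -2.61 ± 0.03 (SD, n = 3) and a difference of -0.79 (SE 0.32, 95% interval -1.49 to -0.09, adjusted p by limma 0.189), or 1.73-fold lower. D9 to D11 lay closer together in these 2 genes than the rats of either other group.

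Group D and Group M did not overlap for 3 members, Rela by its brighter probe only. Nfkb1 and Rela were lower in all of D9 to D11 than in any rat of Group M, where 7.38% of all probes were, and Ikbkb was higher, where 8.46% of all probes were. For Rela the difference was -0.20 (SE 0.11, adjusted p by limma 0.3) and for Ikbkb 0.20 (SE 0.10, adjusted p by limma 0.284), so that neither passed. By the other Rela probe the groups overlapped, with a difference of -0.48 (SE 0.35, adjusted p by limma 0.454). Nfkbia differed by -0.30 (SE 0.15, 95% interval -0.64 to 0.04, adjusted p by limma 0.286), Nfkb2 by -0.15 (SE 0.18, adjusted p by limma 0.669) and Nfkbib by -0.01 (SE 0.16, adjusted p by limma 0.976).

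The call in this comparison turned on single rats. Without M6, limma called 2 of 7 members lower in Group D, where it called 14.9% of all probes. These were Nfkb1, at -1.05 (SE 0.15, adjusted p by limma 0.00752), and Nfkbie, at -1.08 (SE 0.23, adjusted p by limma 0.0188). With D12 in the fit, 0 of 7 members were called and 0 were below an unadjusted p of 0.05 by limma, where 0.0198% of all probes were called, and no member kept the 2 groups apart. Nfkb1 then differed by -0.48 (SE 0.34, adjusted p by limma 0.59) and Nfkbie by -0.35 (SE 0.43, adjusted p by limma 0.772), and the difference of Nfkb2 turned from -0.15 to 0.13.

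**Figure D2:**
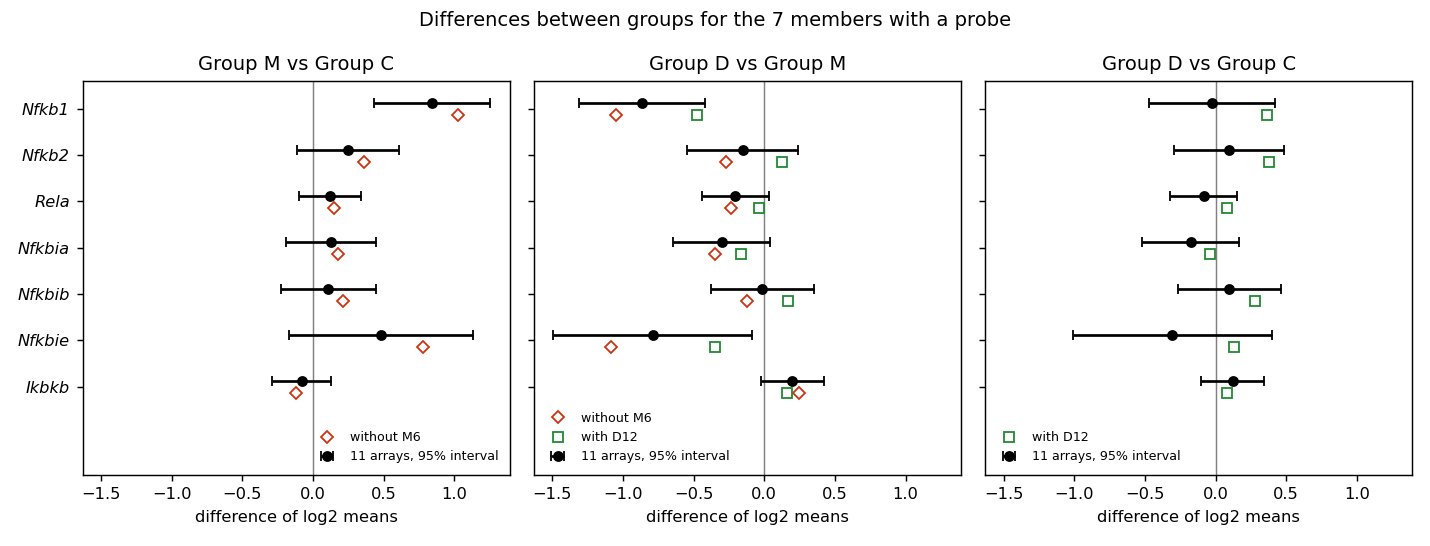
Difference of log2 means for the 7 members (lead probes) in the 3 comparisons, with filled circles and 95% intervals from the 11 arrays, open diamonds without M6 and open squares with D12. The intervals of Nfkb1 in Group M vs Group C (0.43 to 1.26) and for Group D vs Group M (-1.31 to -0.42) and of Nfkbie in Group D vs Group M (-1.49 to -0.09) leave out 0, before adjustment over all probes.

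Group D was last set against Group C. By limma 0 of 7 members differed, against 0.00659% of all probes, and 0 were below an unadjusted p of 0.05 in either direction, against 2.99% of probes higher and 2.99% lower. By the methods' criterion 0 passed, against 0.369%, and no member kept the groups apart, against 3.55% of probes with Group D higher and 4.02% with Group D lower. The difference of Nfkb1 was -0.03 (SE 0.20, 95% interval -0.47 to 0.42, adjusted p by limma 1). The widest interval was that of Nfkbie, at -0.31 (SE 0.32, 95% interval -1.01 to 0.40, adjusted p by limma 0.988), which does not leave out a 2-fold lower level in Group D. The differences of the other members lay between -0.17 (Nfkbia) and 0.12 (Ikbkb). With D12 the difference of Nfkb1 was 0.36 (SE 0.34, adjusted p by limma 0.883), of the opposite sign.

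Across the 12 rats, the members tended to be high and low together. The Pearson correlation of Nfkb1 with Nfkbie was 0.905 and of Nfkb2 with Rela 0.921, and Ikbkb ran against every other member, from -0.26 with Nfkbib to -0.78 with Nfkbie. These are descriptions over 12 arrays, which share the scaling of each array and in which C2, M5, M7, M8 and D12 stand apart from the other 7 rats. Among 10559 named genes well above background on every array, the patterns most like that of Nfkb1 were those of Socs3 (r = 0.986), Myc (0.986) and Ptges3 (0.983). For Nfkbie they were Unc13d (0.989), Def6 (0.988) and Arhgap25 (0.987), for Nfkb2 Nup153 (0.953), Dtx2 (0.950) and Dhx15 (0.950), and for Nfkbia Smarcad1 (0.902), Dkc1 (0.881) and Dnajc18 (0.881).

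Markers of immune cells moved with these values. T cell markers, 9 of 9 measured and each well above background on all 12 arrays, had a summed level of 5.29 in C2 against 0.725 to 1.13 in C1, C3 and C4, of 0.712 in M6 against 3.18 to 4.64 in M5, M7 and M8, and of 9.88 in D12 against 0.700 to 1.26 in D9 to D11. For 7 of 8 B cell markers, whose levels are given above, 3 were well above background on all 12 arrays, and the others, Ms4a1, Cd22, Blk and Cr2, on 5 to 8. Macrophage markers, 9 of 9 measured, summed to 43.4 in C2 and 18.5 to 20.9 in the rest of Group C, to 21.1 in M6 and 47.5 to 62.3 in the rest of Group M, and to 45.9 in D12 and 17.8 to 21.0 in D9 to D11, but the gaps between rats came mainly from 1 gene, Lyz2, the lysozyme of myeloid cells. Without Lyz2 the sum of the other 8 was 9.71 in C2 against 7.72 to 9.78 in C1, C3 and C4, 9.75 in M6 against 11 to 12.9 in M5, M7 and M8, and 12.0 in D12 against 8.92 to 9.95 in D9 to D11, so that C2 no longer stood apart. The 8 neutrophil markers summed to 3.74 in M7, to 0.410 to 0.620 in C2, M5, M8 and D12, and to 0.147 to 0.206 in the other 7 rats. Elane, one of their defining genes, was well above background on no array.

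The rats with high Nfkbie were the rats with high B cell and T cell markers, C2 included. In C2, M5, M7, M8 and D12, 6 of 7 B cell and 8 of 9 T cell markers lay above their level in each of the other 7 rats, as did 3 of 9 macrophage markers (Cd68, Mrc1 and Lyz2) and 3 of 8 neutrophil markers. These rats were picked for their high B cell markers, so the B cell count was largely set by that choice. The share of all probes that divide the rats in this way was not counted. These counts, and those of epithelial and smooth muscle markers below, are therefore descriptions only. For Nfkb1, M5, M7, M8 and D12 lay above all other rats, and C2 was the highest rat of Group C. C2, with a B cell level of 6.21, had a log2 level of -0.43 for Nfkb1. M6, with a B cell level of 0.564, lay just above it at -0.37. The order of C2 and M6 was thus the reverse of that in Nfkbie. Among the 4 rats of Group M the lowest Nfkb1 and the lowest B and T cell markers were in the same rat.

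Some markers of the epithelium lay the other way. Of the 13, 4 genes were lower in each of the same 5 rats than in any of the other 7, among them Cdx2, a transcription factor of the intestinal epithelium (log2 level 1.68 to 2.73 against 3.22 to 4.10), and Vil1, which encodes the villin of the brush border (0.91 to 1.27 against 1.60 to 2.31). The carbonic anhydrases of colonocytes, Car1 (-0.33 to 0.76 against 1.19 to 2.39) and Car4 (2.70 to 3.68 against 4.07 to 5.07), were the others. The summed level of all 13 overlapped between groups (260.3 to 387 in Group M, 228 to 314 in Group C), as did that of 8 endothelial markers (4.86 to 5.52 in Group M, 4.87 to 6.06 in Group C). Of 8 smooth muscle markers, Smtn and Lmod1 were also lower in the 5 rats. The part of these cells in the values of the members was not tested.

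**Figure D3:**
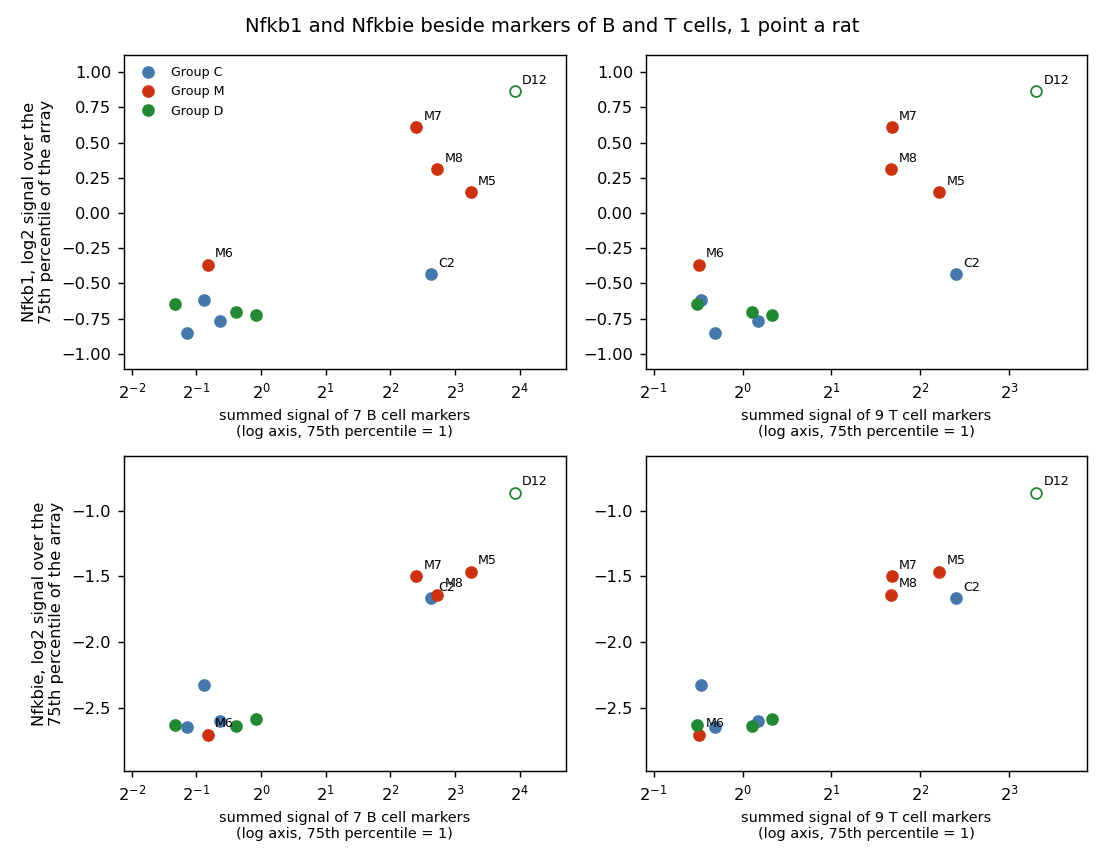
Log2 level of Nfkb1 (top) and Nfkbie (bottom) in each of 12 rats against the summed linear signal of B cell and T cell markers on log axes, 1 point a rat, D12 open. C2, M5, M7, M8 and D12 lie to the right in all 4 panels. M6 lies with the rats of low marker levels.

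The wider pathway was read from 4 lists, which name 103 genes, 95 of them with a probe. At an unadjusted p under 0.05 by limma, 10% of all probes were higher and 12.6% lower in Group M vs Group C. In Group D vs Group M 11.3% were higher and 10.3% lower. The methods' criterion passed 2.31% and 2.66% of all probes in these comparisons. Of the kinases and upstream adaptors, 30 of 33 were measured, and by limma 0 were called in Group M vs Group C, where 4 were higher and 4 lower at an unadjusted p under 0.05. The median difference was -0.05. In Group D vs Group M 0 were called, and 2 were higher and 5 lower at the unadjusted level. The methods' criterion passed 1, Map3k8, a kinase that acts between NFkB and the MAP kinases, at -1.19 (SE 0.32, adjusted p by limma 0.101). In D12 the log2 level of Map3k8 was -0.23, above the Group M mean of -1.38. With D12 in the fit its adjusted p by limma was 0.654. Of the other inhibitors and feedback genes, 18 of 21 were measured and limma called 0 in both comparisons, with 2 higher and 4 lower and 2 higher and 2 lower at the unadjusted level. The methods' criterion passed Bcl3, a nuclear member of the IkB family, in Group M vs Group C, at 1.53 (SE 0.40, adjusted p by limma 0.105) and 2.88-fold.

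Of the NFkB target genes, 38 of 39 were measured, and their median log2 difference was 0.65 in Group M vs Group C, where all probes had -0.01. Their means were higher in Group M for 31 of 38. By limma 0 were called, and 14 were higher and 0 lower at an unadjusted p under 0.05, against 10% and 12.6% of all probes. The methods' criterion passed 6, all higher in Group M, against 2.31% of all probes. Ccl2, the chemokine that draws monocytes, differed by 3.17 (SE 0.73, 8.995-fold, adjusted p by limma 0.0954). Cxcl1, a chemokine for neutrophils, differed by 2.67 (SE 0.79, adjusted p by limma 0.115). Ptgs2, the inducible prostaglandin synthase, differed by 1.61 (SE 0.41, adjusted p by limma 0.101), Myc, a growth regulator, by 1.38 (SE 0.29, adjusted p by limma 0.0895), and Icam1, an adhesion molecule for leukocytes, by 1.22 (SE 0.36, adjusted p by limma 0.115). Il6, an inflammatory cytokine, was well above background in 1 of 4 rats of Group M and in none of Group C, with measured means of -6.68 and -8.69 (adjusted p by limma 0.117), so no fold is given.

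In Group D vs Group M the median over the 38 target genes was -0.71, and 6 of 38 had higher means in Group D. With D12 in the fit this median was -0.29. Limma called 1 of them, Ccl5, a chemokine for T cells, which was higher in Group D by 1.49 (SE 0.23, adjusted p by limma 0.0488) and is named here after its values were seen. With D12, whose log2 level of -1.30 lay near the mean of -1.53 in Group M, its adjusted p was 0.205, and 0 target genes were called without C1, C3, C4, M5, M7, M8, D9, D10 or D11. At an unadjusted p under 0.05 by limma, 15 were lower and 1 higher, against 10.3% and 11.3% of all probes. Of all probes, 2.66% passed the methods' criterion. The methods' criterion passed 7 lower and 1 higher, and the lower ones were Ccl2 at -4.00 (SE 0.79, adjusted p by limma 0.0728), Cxcl2 at -3.37 (SE 1.03, adjusted p by limma 0.124), Ccl3 at -2.34 (SE 0.68, adjusted p by limma 0.114), Bcl2a1d at -1.61, Icam1 at -1.55, Myc and Csf2. Ccl5 and Myc come after the 6 largest differences. Csf2, a growth factor of myeloid cells, was well above background in 3 of 4 rats of Group M and in none of D9 to D11. By its mean it was at least 2.64-fold lower in D9 to D11 (adjusted p by limma 0.112). In D12 Ccl2 stood at a log2 level of 2.73, near the mean of 2.88 in Group M. Cxcl2 (-0.85), Ccl3 (-2.24), Bcl2a1d (-2.28), Icam1 (1.09) and Myc (1.54) lay higher in D12 than their Group M means (-2.42, -2.76, -2.79, 0.30 and 0.62). Csf2 lay lower, at -6.84 against -6.14. With D12 in the fit, the adjusted p by limma of these 7 genes ran from 0.278 (Ccl2) to 0.622 (Myc). In Group D vs Group C the median was -0.03 (0.19 with D12), 0 were called, 1 was higher and 0 lower at the unadjusted level, and Ccl5 alone passed the methods' criterion, at 1.12 (SE 0.23, adjusted p by limma 0.357).

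Of the noncanonical receptors and ligands, 9 of 10 were measured, and their median difference was 0.66 in Group M vs Group C, and it was -0.95 in Group D vs Group M. Without M6 the first was 1.11, and with D12 the second was -0.49. On the 11 arrays the first median was the value of Tnfsf14 and the second that of Tnfsf11. These genes were well above background on only 6 and 4 of the 12 arrays, Tnfrsf13c on 7 and Cd40lg on 1. By limma 0 of the list were called in either comparison, with 1 higher and 0 lower, and 1 higher and 3 lower, at an unadjusted p under 0.05. The shares of all probes were 10% and 12.6%, and 11.3% and 10.3%. Tnfsf14, a ligand of the lymphotoxin beta receptor, passed the methods' criterion in Group D vs Group M. It was well above background in 3 of 4 rats of Group M and in none of D9 to D11. The measured means of Group M and Group D, -5.52 and -6.98, were 2.76-fold apart (SE 0.44 log2, adjusted p by limma 0.119). In D12 Tnfsf14 stood at -4.95, and with D12 in the fit its adjusted p by limma was 0.503. Without M6, limma called 15 of the 38 target genes higher in Group M than in Group C, and 16 lower and 1 higher in Group D than in Group M, against 16.2% and 14.9% of all probes. In Group D vs Group C limma called 0 genes of the 4 lists. At an unadjusted p under 0.05 it counted 1 target gene higher, 1 kinase and 1 other inhibitor lower and 0 noncanonical genes. Of all probes, 2.99% were higher and 2.99% lower at that level. The members' own medians, 0.13 and -0.20, were smaller in size than those of their target genes in both comparisons. The target genes were listed with earlier results of these data known, so this contrast is a description and not a test.

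**Figure D4:**
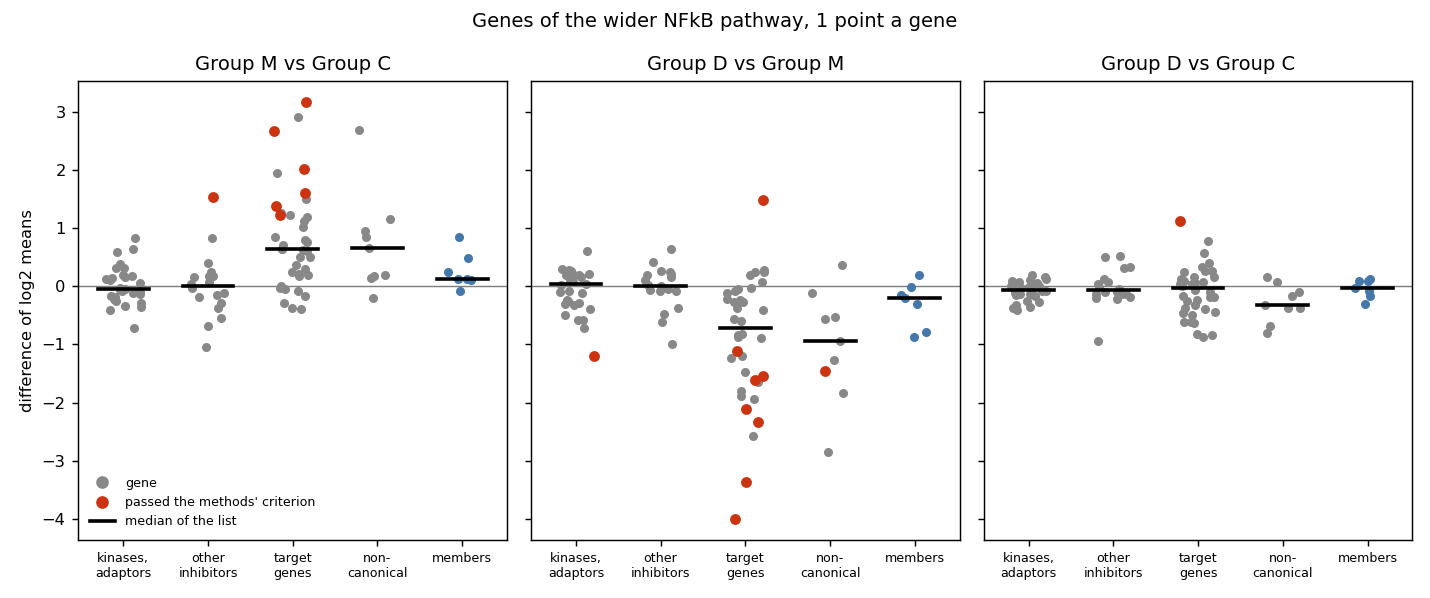
Difference of log2 means per gene for the 4 lists of the wider pathway and for the 7 members in the 3 comparisons, 1 point a gene, red where the methods' criterion was passed, with the median of each list as a bar. Target genes have a median of 0.65 in Group M vs Group C, -0.71 in Group D vs Group M and -0.03 in Group D vs Group C.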

How the data were processed

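Colonic RNA of 12 rats was hybridized to 1 Cy3 array per rat. Per the file headers, the intensity deposited for each spot had been background-subtracted and detrended by Agilent Feature Extraction (10.5.1.1, rn4 build) and not normalized between arrays. The authors' matrix holds deposited log2 values, quantile normalized, and served as an alternative. Here control spots and outlier spots were left out, log2 signals were taken relative to the 75th percentile of the array, with a mean over the spots of each probe. The signal stands in place of depth, and the number of arrays limits the precision. A probe counted as well above background on an array where at least 50% of its spots were marked so. A gene with several probes was led by the one with the highest mean signal.

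The 3 groups were fitted in one model with limma 3.58.1 under R 4.3.3 (lmFit, eBayes, 11 arrays, 30348 probes with a value on all), with Benjamini-Hochberg adjustment over all probes and a threshold of 0.05. P-values set the differences between groups against the spread between rats within groups. The litters of the rats are not given, so it is not known whether rats of a group were littermates. The methods' criterion (analysis of variance, Tukey test and 2-fold) was computed on the same values. The members, the lists and the tests were chosen with earlier results of these data known. Named genes are all members, up to 6 genes per list and comparison past either rule, with 2 named beyond these where the text says so, and the 3 most alike in pattern. Tnfsf11, Tnfrsf13c and Cd40lg are named only for their dim signal. List genes were matched by name or, for 7 of them, by an older name in RefSeq, and Emr1 and Adgre1, names of 1 gene, were counted once. At least N-fold is given for Csf2, where no rat of the lower group was well above background. It is left out for Il6, where only 1 rat of the higher group was. For Tnfsf14 it equals the measured ratio, which is given instead. At least N-fold is a limit of signal and takes no account of the spread between rats. It sets the mean of the higher group against the mean, over the arrays of the lower group, of the higher of the gene's own signal and the lowest signal well above background on that array. The procedure was tested on simulated data. Alternatives were all 12 arrays, normexp background correction (offset 50), quantile normalization, median scaling, the authors' matrix, outlier spots kept, a filter on dim probes, the replicate number as a block, array weights, only the compared groups, the other Rela probe and each rat left out in turn. Figures were drawn with Python 3.11.15 and matplotlib 3.10.9.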

Additional observations from a re-analysis of the deposited data

Results flagged for a closer look

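Rat D12, which the study left out of its array analysis, had higher levels than every rat of Group C for 6 of the 7 members. The log2 levels in D12 were 0.87 for Nfkb1, 1.26 for Nfkb2, 1.22 for Rela, 1.87 for Nfkbia, -0.65 for Nfkbib and -0.86 for Nfkbie, and for each of these 6 D12 was also above every rat of Group M. In Ikbkb it was not, at 0.58. D12 was also far from the other rats of its own group, by Dixon's test, for Nfkb1, Rela and Nfkbie, with gaps of 0.953, 0.867 and 0.969 of the range of Group D. Its B cell and T cell markers stood apart in the same direction, and Cdx2, Vil1, Car1 and Car4 of the epithelium in the other, and their part was not tested.

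In Group M, M6 was far below the other rats for Nfkbie, at a log2 level of -2.70, with a gap of 0.860 of the range. Chance flags about 1 in 20 groups, and 4 of the 21 pairs of a member and a group were picked out. The pairs are not independent, since the members are correlated and the flags for Nfkb1, Rela and Nfkbie in Group D are the same rat. The count therefore cannot be set against chance. The B cell and T cell markers were low in M6 as well, and the cause was not tested.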

How the results depend on the processing

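No member passed the threshold on the 11 arrays. Nfkb1 kept its direction in Group M vs Group C (0.70 to 1.02, adjusted p by limma 0.00331 to 0.244), and also in Group D vs Group M (-1.05 to -0.48, adjusted p 0.00593 to 0.59) under all 21 alternatives. Array weights raised the counts called in Group M vs Group C from 0 to 3 members (Nfkb1, Nfkb2 and Nfkbie), 10 kinases and adaptors, 7 other inhibitors, 20 target genes and 6 noncanonical genes, and in Group D vs Group M to 2, 11, 5, 18 and 7, where 8583 and 6881 of all 30348 probes were called. Normexp gave 1 target gene in Group M vs Group C, and 1 kinase and 2 target genes in Group D vs Group M, where the filter on dim probes gave the same counts. In these comparisons normexp called 163 and 333 of all 30348 probes, and the filter 112 and 267 of 21563. In Group D vs Group M the 1 target gene called was 0 with all 12 arrays, with the replicate block and with only the compared groups.

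Leaving out 1 rat at a time gave, in Group M vs Group C, 0 to 2 members called, 0 to 1 past the methods' criterion, 0 to 6 kinases, 0 to 4 other inhibitors, 0 to 15 target genes and 0 to 3 noncanonical genes, and in Group D vs Group M 0 to 2, 0 to 2, 0 to 7, 0 to 3, 0 to 17 and 0 to 4, the highest always without M6. Without M6, limma called 16.2% and 14.9% of all probes in these comparisons. In Group D vs Group C leaving out 1 rat gave 0 to 1 other inhibitors, where 0 to 10 of all probes were called.

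Differences near 0 turned their sign. With all 12 arrays, Nfkb2 and Nfkbib became 0.13 and 0.17 in Group D vs Group M, and Nfkb1, Rela and Nfkbie 0.36, 0.0795 and 0.13 in Group D vs Group C. Nfkbib in Group D vs Group M became 0.0076 by quantile normalization, 0.0598 by median scaling and 0.0075 in the authors' matrix, and ranged from -0.12 to 0.0956 with 1 rat left out. Nfkbib in Group M vs Group C then ranged from -2e-04 to 0.22. Nfkb1 in Group D vs Group C became 0.0231 with normexp, 0.0386 by median scaling and 0.0278 with array weights, and ranged from -0.0869 to 0.0532 with 1 rat left out. The causes were not tested.

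The replicate numbers of the rats are no pairing, as same-numbered rats deviated together by -0.72 to 0.18 (Pearson correlation) and 0 arrays correlated best with their own number. With the replicate block, 0 members were called, and the adjusted p of Nfkb1 by limma was 0.244 and 0.26. Signal did not limit the members, whose probes were well above background on all 12 arrays.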
